A study of Canis lupus familiaris with 20 samples.

Results

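Molecular chaperones of dog retina were followed after CNTF (ciliary neurotrophic factor), which belongs to the interleukin-6 family of cytokines, was injected into the vitreous. Members were the array probes whose gene name begins with HSP, DNAJA, DNAJB, DNAJC, PDIA or CCT followed by its family number or letter, plus CALR, CANX, CRYAB and HYOU1, with the probe of highest mean signal kept for each gene. This gave 65 genes out of 35483 gene names on the array, from 117 probes, of which 20 genes are placed in the endoplasmic reticulum (ER), 38 in the cytosol, 6 in mitochondria and 1, DNAJC22, nowhere. The rule used names and signal levels, not the response to CNTF.

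Retinas came from 10 dogs of 1 research colony, 5 normal and 5 CNGB3-mutant, with a single-colour array for each eye and so 4 groups of 5 arrays. Each dog had 12 µg of CNTF injected into the right eye and phosphate-buffered saline (PBS) into the left, and retinas were taken 1 week later. The normal dogs were 4 heterozygotes (CNGB3+/m) and 1 homozygote (CNGB3+/+, dog 3), all male and labelled 8.9 weeks old. The mutants (CNGB3m/m) carry a missense change in the beta subunit of the channel that cyclic GMP opens in cones, were 3 females and 2 males and are labelled 10.7 to 11.5 weeks old, whereas the study's design text gives about 11 months for both genotypes. Genotype therefore went with sex and with age, and these cannot be told apart. A fit on males alone leaves out the females, but age still goes with genotype in it. PBS eyes were injected too, so no uninjected retina is in the comparison.

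Chaperones bind unfolded proteins and help them reach or keep their fold. HSP70 proteins do so in cycles of ATP hydrolysis that J proteins (DNAJ) start and nucleotide exchange factors end, HSP90 proteins act later on selected clients, and the ring-shaped CCT complex folds actin, tubulin and, in photoreceptors, the G protein beta subunits. In the ER the same families are joined by calnexin and calreticulin, which hold glycoproteins, and by protein disulfide isomerases (PDIA), which form disulfide bonds. Photoreceptors send large amounts of opsin through the ER, and the small heat shock proteins (HSPB and CRYAB) hold damaged protein in many retinal cells.

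The stretches below are shown because they let the reader see which part of a message was measured where a result turns on it. They are probe sequences from the array files, in canFam2 coordinates, and each could be read without a stop codon in at least 1 frame, or up to the stop codon for HSP70. The capitals in DNAJC1 mark the codons of the HPD motif by which a J domain stimulates HSP70, and those in HSP70 the codons of the EEVD end that binds co-chaperones. The HSPA5, PDIA3, HYOU1 and HSPA4L probes span more of the genome than their own length, so they cross an intron.
HSPA5: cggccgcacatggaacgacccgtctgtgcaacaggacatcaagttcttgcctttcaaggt
PDIA3: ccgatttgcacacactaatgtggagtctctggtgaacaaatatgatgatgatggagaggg
HYOU1: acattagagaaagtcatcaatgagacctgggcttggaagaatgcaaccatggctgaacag
HSPA4: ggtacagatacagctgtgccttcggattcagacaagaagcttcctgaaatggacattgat
HSPA4L: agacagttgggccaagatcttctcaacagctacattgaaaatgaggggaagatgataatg
CCT3: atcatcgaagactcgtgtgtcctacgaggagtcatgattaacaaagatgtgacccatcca
HSPA9: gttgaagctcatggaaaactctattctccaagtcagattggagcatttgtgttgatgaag
DNAJC1: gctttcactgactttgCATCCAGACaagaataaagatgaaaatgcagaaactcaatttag
HSP70: tctggccccaccatcGAGGAGGTGGATtag
On the plus strand lay HSPA5 at chr9:61193258-61193765, PDIA3 at chr30:13495877-13500348, HYOU1 at chr5:17811291-17812373, HSPA4 at chr11:24368137-24368196, CCT3 at chr7:44546986-44547045, DNAJC1 at chr2:14087457-14087516 and the whole HSP70 probe at chr12:4290002-4290061, of which the 30 bases up to the stop codon are printed. HSPA4L at chr19:16119069-16122259 and HSPA9 at chr11:29154599-29154658 lay on the minus strand. Those of HSPA5, PDIA3, HSPA9 and HSP70 are further probes of these genes, not the brightest. The longest run of bases shared by the chosen probes of any 2 members was 12 (CCT5 and CALR).

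Signals are given as scaled signal, where 1 is the 75th percentile of probes on the array. Differences are in log2 of that signal ± the standard error of a fit to all arrays in which each dog was a block, and a gene was called at an adjusted p under 0.05 (limma with Benjamini-Hochberg adjustment over all tested probes). Over all 20 arrays 52.2 to 71.9% of probes were well above background, and their 75th percentile was 291 to 592 intensity units. Of the 65 members, 59 passed the filter on dim probes and 53 were above background on every array. CCT6B, HSPB3 and DNAJC5B were above background on no array, DNAJB7 on 3, DNAJB8 on 4 and DNAJC22 on 3. PDIA6, CCT8, HSP90AB1 and CRYAB passed but had too many spots marked as outliers by the scanning software, so 55 members were tested for CNTF. Where a single spot was left out for that reason, the lists below write "marked" in its place. With 5 dogs per genotype, the number of arrays limits the precision of every value.

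Treatment followed the slide closely. Slide 1 held PBS eyes of normal dogs 1 to 4 and slide 5 CNTF eyes of mutants 2 to 5. Only slide 3 held both treatments, with CNTF eyes of normal dogs 1 and 2 beside PBS eyes of mutants 4 and 5, so a difference within it mixes treatment and genotype. With slide as a block in place of the dog, no member was called in either genotype (smallest adjusted p = 0.0596), where 2.95% of all probes were called higher and 0.97% lower in normal dogs and 1.71% and 1.02% in mutants. Slide and treatment can largely not be told apart here. Genotype followed the slide as well. Among PBS eyes only slide 2 held both genotypes, with normal dog 5 beside mutants 1 to 3. Among CNTF eyes only slide 4 did, with normal dogs 3 to 5 beside mutant 1. Slide and genotype can therefore largely not be told apart either. The array of PBS normal 1 stood apart in the comparison of genotypes, as given there. All 5 rod and 4 cone markers, which define retina, were above background on every array, except the cone transducin GNAT2, which was so on 3 of 5 CNTF arrays of mutants.

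After CNTF, 6 of 9 tested members of the ER lumen rose in normal dogs and 1 fell. Of 7 cytosolic HSP70 genes 5 rose and 2 fell, and 3 of 3 CCT genes rose. Of the J proteins 2 of 10 rose and 2 fell in the ER (median -0.17), and 2 of 15 rose and 5 fell in the cytosol (median -0.23). Of 6 mitochondrial members 1 rose and 1 fell. In mutants fewer members were called. The medians were lower there for the ER lumen, the cytosolic HSP70 and CCT genes and mitochondria. Those of the J proteins were higher, at -0.011 in the ER and -0.034 in the cytosol. Of the 55 members tested, 20 rose and 12 fell in normal dogs, where 23.6% of all 29336 probes rose and 27.6% fell. In mutants 10 rose and 5 fell, against 11.6% and 17.3% of all probes. Those called higher in both genotypes were 8, 40% of the normal list and 80% of the mutant list, namely CANX, DNAJB11, DNAJC21, HSP90B1, HSPA4, HSPA5, HSPB1 and PDIA4. Over all probes called higher these shares were 39.7% and 80.6%. With normexp background correction the mutant call was lost for all of these but DNAJC21. HSPA4L, PDIA5 and the chosen probe of DNAJC1 were called lower in both, 25% and 60% of the lists, beside 35.5% and 56.9% over all probes. The other probe of DNAJC1 was called higher, so no direction holds for that gene. No member was called in opposite directions. The median change of the tested members was 0.15 in normal dogs and -0.019 in mutants, beside -0.090 over all probes in each.

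The groups did not overlap for 11 of the 20 genes that rose and 5 of the 12 that fell in normal dogs, and for 6 of 10 and 3 of 5 in mutants. Over all called probes the groups did not overlap for 58.6% of those higher and 53.6% of those lower in normal dogs, and for 57.4% and 42.8% in mutants. By compartment, 8 of 19 ER members rose and 3 fell in normal dogs (median 0.30), as did 11 and 8 of 30 cytosolic members (median 0.15) and 1 and 1 of 6 mitochondrial members (median 0.035). In mutants the counts were 6 and 2 for the ER (median 0.18), 4 and 3 for the cytosol (median -0.044) and 0 and 0 for mitochondria (median -0.056), where 2 of 6 had an unadjusted p under 0.05. Of all probes 23.6% rose and 27.6% fell in normal dogs, and 11.6% and 17.3% in mutants. The compartments differ in make-up, since the mitochondrial members are HSPA9 and J proteins only. In normal dogs the J protein medians were -0.17 in the ER and -0.23 in the cytosol. The compartment medians therefore mix location with protein family, and the differences between compartments were not tested. Dog by dog, over the 18 to 20 ER members measured in both eyes, the median was above 0 in 5 of 5 normal dogs (0.10 to 0.63) and in 4 of 5 mutants (-0.010 to 0.38). The cytosolic median, over 29 or 30 members, was above 0 in 4 of 5 normal dogs (-0.044 to 0.31) and in 1 of 5 mutants (-0.088 to 0.012). The mitochondrial median, over 5 or 6 members, was above 0 in 4 of 5 normal dogs (-0.13 to 0.055) and in 1 of 5 mutants (-0.21 to 0.053).

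**Figure D1:**
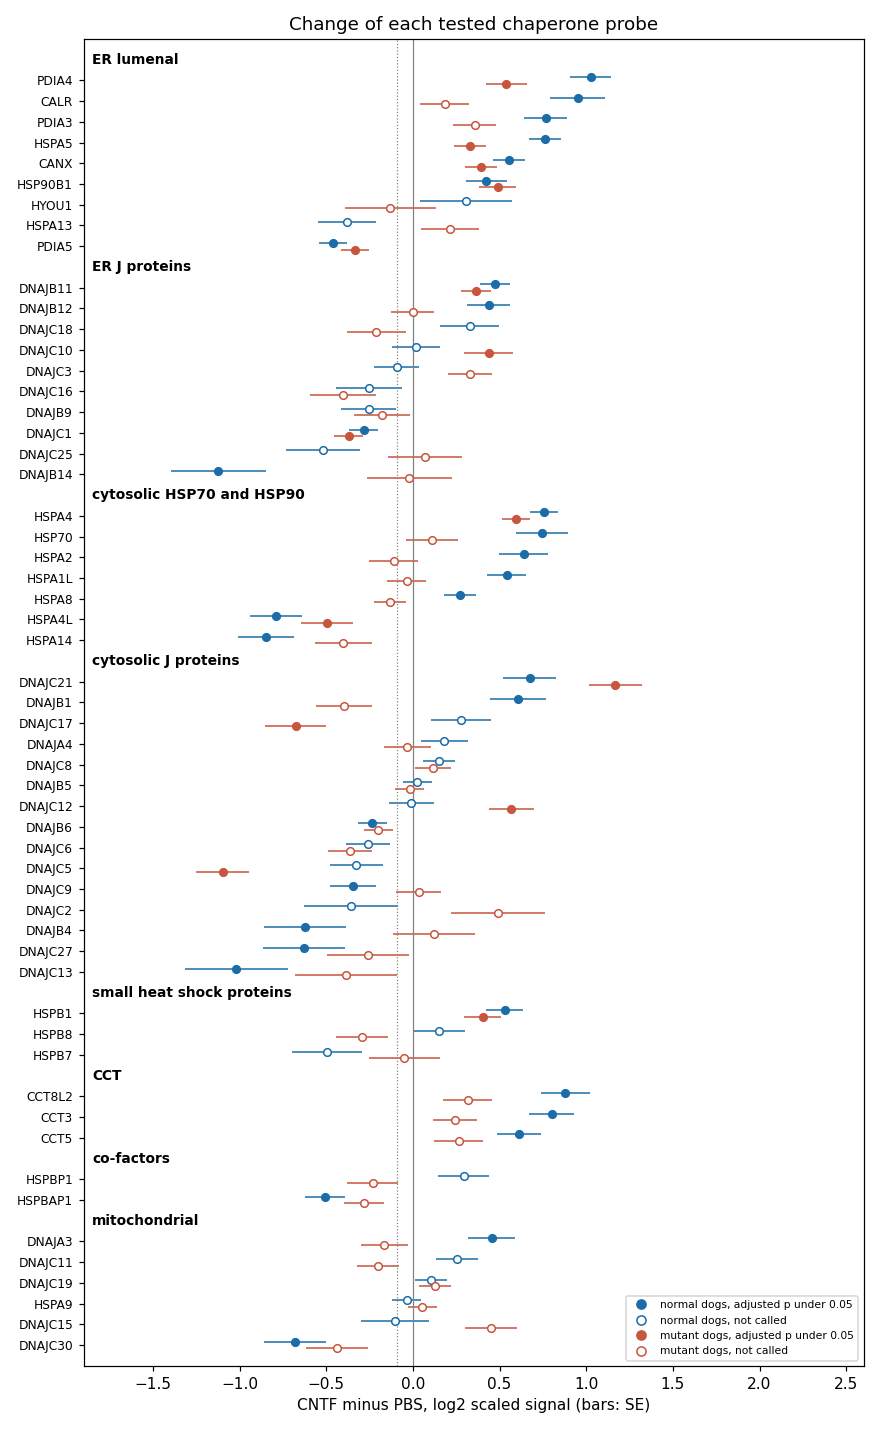
CNTF minus PBS in log2 scaled signal for each of the 55 tested members, by subgroup, with bars of 1 SE, blue for normal dogs and red for mutants. Filled points passed an adjusted p of 0.05, and the dotted line is the median of all probes in normal dogs (-0.090). In the ER lumen 6 of 9 points of normal dogs are filled and to the right, with PDIA4 farthest at 1.02 ± 0.12, while HSPA9 lies at -0.035 ± 0.084.

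In the ER lumen 6 of 9 tested members rose and 1 fell in normal dogs, with a median of 0.55, and 4 rose and 1 fell in mutants, with a median of 0.33. Over all probes 23.6% rose and 27.6% fell in normal dogs, and 11.6% and 17.3% in mutants. PDIA4, an isomerase with several thioredoxin-like domains, had scaled signals of 9.46, 8.30, 6.57, 6.46 and 6.67 in PBS eyes and 15.2, 13.8, 15.3, 13.2 and 18.3 in CNTF eyes of normal dogs 1 to 5. In mutants 1 to 5 they were 9.38, 14.3, 9.83, 11.02 and 8.14 in PBS eyes and 13.2, 18.4, 14.2, 17.5 and 12.6 in CNTF eyes. Groups of the normal dogs did not overlap, and every dog of both genotypes was higher in the CNTF eye. PDIA4 rose 2.03-fold in normal dogs, by 1.02 ± 0.12 (adjusted p = 6.81e-05), and 1.45-fold in mutants, by 0.54 ± 0.12 (adjusted p = 0.00576). A slide block gave 1.33 (adjusted p = 0.0881) for normal dogs, and the slide 3 arrays alone 0.62.

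HSPA5 (BiP), the ER's HSP70 and the protein that holds the stress sensors of the ER in check, gave 21.2, 28.8, 17.3, 19.0 and 20.4 in PBS eyes and 32.2, 40.9, 33.8, 32.1 and 40.2 in CNTF eyes of normal dogs. Mutants gave 26.1, 32.2, 23.2, 29.8 and 23.4 in PBS eyes and 32.9, 39.0, 30.01, 37.9 and 29.3 in CNTF eyes. Dog 2 was the highest of the PBS eyes in each genotype, and the normal groups did not overlap. It rose by 0.76 ± 0.093 (adjusted p = 1.01e-04) in normal dogs and by 0.33 ± 0.093 (adjusted p = 0.0212) in mutants, and stood at 0.86 (adjusted p = 0.238) in normal dogs with slide as a block and at 0.46 within slide 3. The mutant call was lost without mutant dog 1, 3, 4 or 5 (adjusted p = 0.0521 to 0.0648). The intron-crossing probe printed above read 0.56 ± 0.11 (adjusted p = 0.00194) in normal dogs and 0.090 ± 0.11 (adjusted p = 0.579) in mutants.

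HSP90B1 (GRP94), the ER's HSP90, gave 24.5, 31.4, 29.8, 30.2 and 31.1 in PBS eyes and 40.02, 46.1, 34.3, 35.4 and marked in CNTF eyes of normal dogs. Mutants gave 30.8, 32.0, 24.3, 33.8 and 28.4 in PBS eyes and 37.4, 43.2, 39.3, 48.2 and 41.0 in CNTF eyes. PBS normal 1 was below the other PBS arrays of its group, and the CNTF values of both genotypes lay above all their PBS values. The rise was 0.42 ± 0.12 (adjusted p = 0.0146) in normal dogs and 0.49 ± 0.11 (adjusted p = 0.00665) in mutants. It was not called in normal dogs without dog 1 (0.33, adjusted p = 0.0579). Quantile normalization gave 0.15 (adjusted p = 0.475) in normal dogs and 0.43 (adjusted p = 0.053) in mutants, neither called. The deposited values gave 0.081 (adjusted p = 0.658) and 0.41 (adjusted p = 0.052). Normexp background correction gave 0.39 (adjusted p = 0.185) and 0.26 (adjusted p = 0.303), so the call was lost in both genotypes under each. Within slide 3 the rise was 0.47.

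CALR (calreticulin), the soluble lectin that holds glycoproteins and calcium, gave 79.0, 77.1, 50.1, 53.1 and 52.0 in PBS eyes and marked, 102, 116, 96.3 and 131 in CNTF eyes of normal dogs. In mutants it gave 75.9, 137, 78.6, 108 and 71.8 in PBS eyes and 112, 136, 90.0, 113 and 76.5 in CNTF eyes. Normal groups did not overlap among the spots used, whereas mutant dog 2 was highest in either eye and the mutant groups overlapped. CALR rose by 0.95 ± 0.16 (adjusted p = 0.00107) in normal dogs, and the value in mutants was 0.18 ± 0.14 (adjusted p = 0.375). With the marked spot of CNTF normal 1 kept, which reads 58.1, the normal rise was 0.67 ± 0.21 (adjusted p = 0.0236) and the groups overlapped. Its other probes read 0.88 ± 0.15 (adjusted p = 0.00129) and 0.71 ± 0.13 (adjusted p = 0.00132) in normal dogs. In the deposited values the rise was 0.30 and not called (adjusted p = 0.149). Within slide 3 the difference was 0.22, from a single CNTF eye, and with the marked spot kept it turned to -0.15.

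CANX (calnexin), the membrane-bound partner of CALR, gave 1.48, 1.81, 1.22, 1.46 and 1.37 in PBS eyes and 2.22, 2.13, 1.93, 2.15 and 2.28 in CNTF eyes of normal dogs. Mutants gave 1.73, 1.65, 1.59, 1.79 and 1.502 in PBS eyes and 2.24, 2.41, 1.95, 2.26 and 2.02 in CNTF eyes. Neither genotype's groups overlapped, and CANX rose by 0.55 ± 0.093 (adjusted p = 8.18e-04) and by 0.39 ± 0.093 (adjusted p = 0.00853). A further, slightly dimmer probe read 0.25 ± 0.086 (adjusted p = 0.0328) in normal dogs and -0.081 ± 0.086 (adjusted p = 0.524) in mutants, so the mutant rise holds for the brighter probe alone. Within slide 3 the difference was 0.41.

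PDIA3 (ERp57), which forms disulfides in glycoproteins handed over by CALR and CANX, gave 2.45, 2.73, 1.92, 2.14 and 1.86 in PBS eyes and 4.09, 3.55, 3.52, 3.26 and 4.36 in CNTF eyes of normal dogs. In mutants the values were 2.70, 4.37, 2.605, 3.30 and 2.38 in PBS eyes and 3.595, 4.34, 3.44, 4.82 and 3.20 in CNTF eyes. The normal groups did not overlap. PDIA3 rose by 0.77 ± 0.13 (adjusted p = 7.28e-04) in normal dogs, while mutants had 0.36 ± 0.13 (adjusted p = 0.055). The probe across the intron read 0.73 ± 0.11 (adjusted p = 5.60e-04) and 0.25 ± 0.11 (adjusted p = 0.127) in the same order. PDIA5, named here after its values were seen, went the other way. It gave 2.83, 2.71, 2.88, 2.67 and 2.78 in PBS eyes and 2.10, 1.88, 2.08, 1.89 and 2.15 in CNTF eyes of normal dogs and 2.66, 3.01, 2.87, 2.42 and 1.96 in PBS eyes and 2.27, 2.55, 2.12, 1.72 and 1.62 in CNTF eyes of mutants. Every dog was lower in the CNTF eye, and PDIA5 fell with a log2 change of -0.46 ± 0.081 (adjusted p = 0.00114) and -0.34 ± 0.081 (adjusted p = 0.0101). A slide block gave -0.099 and 0.021, and the slide 3 arrays alone -0.13.

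HYOU1 (GRP170), the nucleotide exchange factor of HSPA5, was dim, with 0.0568, 0.0561, 0.0402, 0.0394 and 0.0519 in PBS eyes and 0.0773, 0.0326, 0.0803, 0.0354 and 0.105 in CNTF eyes of normal dogs and 0.0626, 0.117, 0.0983, 0.0530 and 0.0642 in PBS eyes and 0.0823, 0.0794, 0.0676, 0.0759 and 0.0468 in CNTF eyes of mutants. In each genotype 5 PBS eyes and 3 CNTF eyes had it above background, its groups overlapped, and the values were 0.30 ± 0.26 (adjusted p = 0.348) and -0.13 ± 0.26 (adjusted p = 0.756). HSPA13, a microsomal HSP70, was not called either, at -0.38 ± 0.17 (adjusted p = 0.0743) and 0.21 ± 0.17 (adjusted p = 0.368).

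**Figure D2:**
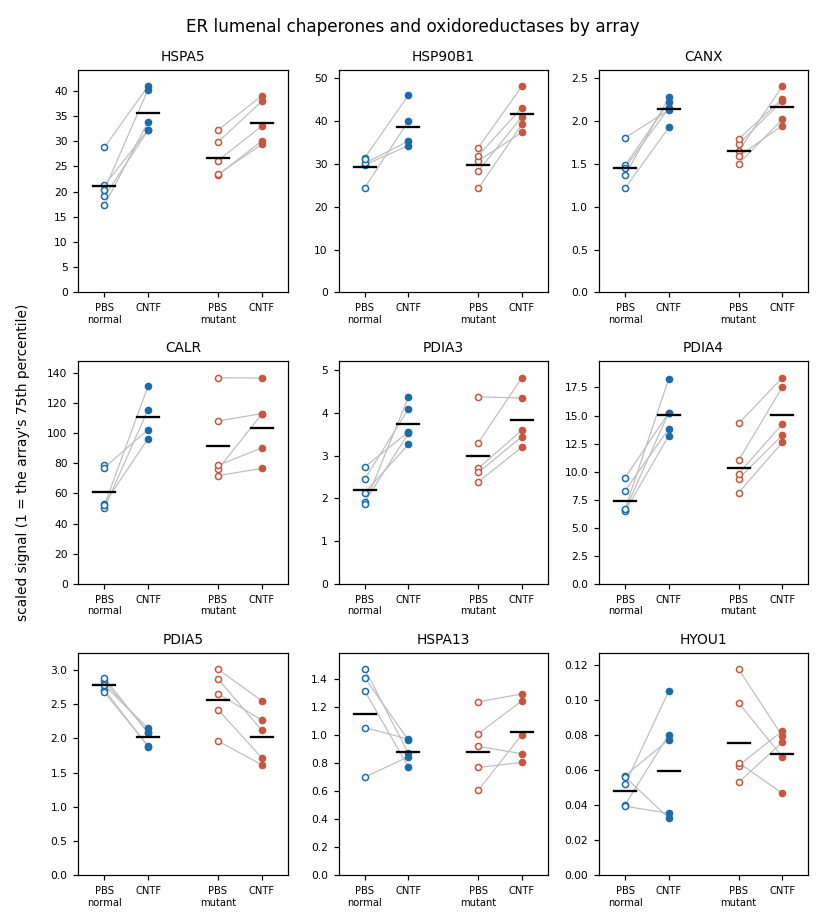
Scaled signal (1 = the array's 75th percentile) of the 9 tested ER lumenal members on each array, with open points for PBS and filled points for CNTF eyes, lines joining the eyes of a dog and bars at geometric means. All 5 lines of normal dogs go up for HSPA5, CANX, PDIA3 and PDIA4 and down for PDIA5, and HYOU1 stays below 0.12 on every array.

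PDIA6 (P5), an isomerase that works with HSPA5, was not tested because 6 of its 20 spots were marked. With these kept, an alternative chosen after seeing the data, it gave 13.8, 12.5, 8.25, 8.91 and 8.13 in PBS eyes and 23.7, 23.3, 25.3, 20.1 and 26.9 in CNTF eyes of normal dogs. Mutants gave 11.04, 17.7, 12.3, 14.05 and 11.9 in PBS eyes and 21.3, 26.2, 17.7, 25.8 and 18.6 in CNTF eyes. Groups of neither genotype overlapped. In that fit PDIA6 rose by 1.24 ± 0.14 (adjusted p = 8.28e-05) in normal dogs and by 0.71 ± 0.14 (adjusted p = 0.00379) in mutants, where 22.3% of all 29545 probes rose and 28.5% fell in normal dogs and 11.3% and 17.9% in mutants. Its dimmer probes, which had no marked spot, read 0.82 ± 0.12 (adjusted p = 3.15e-04) and 0.73 ± 0.11 (adjusted p = 4.22e-04) in normal dogs but 0.27 ± 0.12 (adjusted p = 0.111) and 0.29 ± 0.11 (adjusted p = 0.0703) in mutants, so the mutant call rests on the brightest probe.

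Among the ER's J proteins 2 of 10 rose and 2 fell in normal dogs (median -0.17), and 2 rose and 1 fell in mutants (median -0.011). These counts stand beside 23.6% and 27.6% of all probes in normal dogs and 11.6% and 17.3% in mutants. DNAJB11 (ERdj3), a soluble co-chaperone of HSPA5, gave 4.08, 3.79, 3.41, 3.12 and 3.54 in PBS eyes and 4.94, 4.89, 5.02, 4.50 and 5.48 in CNTF eyes of normal dogs. Mutants gave 4.05, 4.05, 3.95, 4.04 and 3.85 in PBS eyes and 4.90, 5.23, 5.198, 5.69 and 4.69 in CNTF eyes. No value of a PBS eye reached those of the CNTF eyes in either genotype. DNAJB11 rose by 0.47 ± 0.086 (adjusted p = 0.00133) and by 0.36 ± 0.086 (adjusted p = 0.00886), with 0.32 within slide 3.

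DNAJB12, a J protein anchored in the ER membrane, gave 1.38, 1.25, 0.919, 1.10 and 1.077 in PBS eyes and 1.53, 1.31, 1.58, 1.38 and 1.94 in CNTF eyes of normal dogs and 1.67, 1.89, 1.71, 1.97 and 1.57 in PBS eyes and 1.73, 2.10, 1.57, 1.98 and 1.48 in CNTF eyes of mutants. Groups overlapped in both genotypes. It rose by 0.44 ± 0.12 (adjusted p = 0.014) in normal dogs, with -0.00097 ± 0.12 (adjusted p = 0.996) in mutants, and the sign turned to -0.31 within slide 3. The normal call was lost without dog 3 or dog 5 (adjusted p = 0.0585 in both). DNAJB14, its close relative in the same membrane, gave 1.47, 2.58, 4.13, 3.30 and 3.73 in PBS eyes and marked, 2.06, 1.25, 1.997 and 1.14 in CNTF eyes of normal dogs and 2.01, 1.32, 1.15, 2.16 and 2.64 in PBS eyes and 1.32, 1.18, 2.09, 1.95 and 2.56 in CNTF eyes of mutants. PBS normal 1 lay among the CNTF values. DNAJB14 fell with a log2 change of -1.12 ± 0.27 (adjusted p = 0.00737) in normal dogs, a 2.18-fold change, and mutants had -0.020 ± 0.24 (adjusted p = 0.961).

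DNAJC1 (ERdj1), which sits at the ER membrane near ribosomes, gave 3.40, 3.28, 2.87, 2.68 and 2.87 in PBS eyes and 2.58, 2.47, 2.41, 2.57 and 2.34 in CNTF eyes of normal dogs. Mutants gave 3.36, 3.31, 3.20, 3.31 and 3.33 in PBS eyes and 2.59, 2.64, 2.51, 2.37 and 2.68 in CNTF eyes. Within each genotype every CNTF eye was below every PBS eye, and this probe was called lower, at -0.28 ± 0.084 (adjusted p = 0.0163) and -0.37 ± 0.084 (adjusted p = 0.00694). A further probe, of nearly the same brightness, was called higher instead, at 0.42 ± 0.088 (adjusted p = 0.00311) and 0.35 ± 0.088 (adjusted p = 0.0131). Their mean was 0.067 in normal dogs and -0.012 in mutants, neither called, so no direction holds for the gene. DNAJC10 (ERdj5), a J protein with thioredoxin domains that reduces disulfides, was called in mutants, at 0.44 ± 0.14 (adjusted p = 0.0367), and was -0.023 within slide 3.

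In the cytosol the HSP70 and HSP90 group had 5 of 7 tested members called higher and 2 lower in normal dogs (median 0.54), against 1 and 1 in mutants (median -0.11). Of all probes 23.6% were called higher and 27.6% lower in normal dogs, and 11.6% and 17.3% in mutants. HSPA4 (APG-2), an HSP110-type exchange factor for HSP70, gave 4.23, 4.42, 3.92, 3.69 and 4.21 in PBS eyes and 7.09, 6.73, 6.63, 6.501 and 7.56 in CNTF eyes of normal dogs. Mutants gave 4.65, 4.77, 4.55, 4.96 and 5.0 in PBS eyes and 6.69, 7.37, 6.42, 8.43 and 7.36 in CNTF eyes. No groups overlapped, and all 10 dogs were higher in the CNTF eye. HSPA4 rose 1.69-fold in normal dogs, by 0.75 ± 0.082 (adjusted p = 4.44e-05), and 1.51-fold in mutants, by 0.59 ± 0.082 (adjusted p = 2.95e-04). Within slide 3 it was 0.47 and with slide as a block 0.62 (adjusted p = 0.183) in normal dogs. The probe is the stretch printed above, and a further probe read 0.41 ± 0.076 (adjusted p = 0.00148) and 0.39 ± 0.076 (adjusted p = 0.00278).

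HSPA4L (APG-1), the nearest relative of HSPA4, moved the other way. It gave 2.17, 3.40, 3.35, 3.15 and 3.59 in PBS eyes and 1.55, 2.44, 1.74, 1.71 and 1.60 in CNTF eyes of normal dogs and 3.19, 2.997, 1.99, 2.77 and 3.25 in PBS eyes and 1.75, 1.68, 2.05, 2.29 and 2.24 in CNTF eyes of mutants. PBS normal 1 and CNTF normal 2 were apart from their groups, which overlapped. HSPA4L fell with a log2 change of -0.79 ± 0.15 (adjusted p = 0.00173) in normal dogs and -0.49 ± 0.15 (adjusted p = 0.0297) in mutants, with -0.63 within slide 3. The mutant call was lost without dog 1, 2 or 5 (adjusted p = 0.0768 to 0.105). A further, slightly dimmer probe of HSPA4L read -1.07 ± 0.17 (adjusted p = 5.68e-04) in normal dogs and -0.79 ± 0.17 (adjusted p = 0.00494) in mutants. HSPA14, a ribosome-associated HSP70-like protein, gave 0.583, 0.700, 1.03, 0.801 and 0.981 in PBS eyes and 0.415, 0.515, 0.455, 0.544 and 0.330 in CNTF eyes of normal dogs. In mutants it gave 0.680, 0.432, 0.553, 0.634 and 0.747 in PBS eyes and 0.424, 0.321, 0.492, 0.455 and 0.627 in CNTF eyes. The normal groups did not overlap, HSPA14 fell with a log2 change of -0.85 ± 0.16 (adjusted p = 0.00187) there, and mutants had -0.40 ± 0.16 (adjusted p = 0.0894).

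HSPA8 (HSC70), the constitutive cytosolic HSP70, gave 111, 122, 90.1, 93.8 and 97.5 in PBS eyes and 118, 129.9, 119.5, 118 and 132 in CNTF eyes of normal dogs. Mutants gave 121, 144, 118, 123 and 113 in PBS eyes and 126, 126, 101, 106 and 106 in CNTF eyes. All 5 normal dogs were higher and 4 of 5 mutants lower in the CNTF eye, with overlapping groups. HSPA8 rose by 0.27 ± 0.092 (adjusted p = 0.0302) in normal dogs, and mutants had -0.13 ± 0.092 (adjusted p = 0.317). The normal value was -0.0037 under quantile normalization and -0.0044 in the deposited values, and the call was lost without dog 3, 4 or 5 (adjusted p = 0.0795 to 0.0994). A spot in each of the normal groups was saturated.

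The stress-inducible HSP70, listed as HSP70 and named here after its values were seen, gave 7.79, 11.99, 5.02, 5.66 and 4.36 in PBS eyes and 9.28, 18.7, 10.68, 11.3 and marked in CNTF eyes of normal dogs. Mutants gave 7.14, marked, 8.01, 8.98 and 6.39 in PBS eyes and 9.06, 10.9, 7.78, 9.65 and 6.51 in CNTF eyes. Normal dog 2 was highest in both eyes. HSP70 rose by 0.74 ± 0.15 (adjusted p = 0.00368) in normal dogs and had 0.11 ± 0.15 (adjusted p = 0.636) in mutants. Its other 3 probes, among them the one with the EEVD codons, read 0.62 to 0.77 in normal dogs and -0.054 to 0.0024 in mutants. HSPA1L, a member of the same gene cluster known for its testis expression, gave 0.314, 0.403, 0.266, 0.227 and 0.220 in PBS eyes and 0.352, 0.559, 0.427, 0.354 and 0.365 in CNTF eyes of normal dogs and 0.378, 0.460, 0.398, 0.323 and 0.281 in PBS eyes and 0.289, 0.433, 0.387, 0.374 and 0.305 in CNTF eyes of mutants. It rose by 0.54 ± 0.11 (adjusted p = 0.0031) in normal dogs, with overlapping groups, and had -0.037 ± 0.11 (adjusted p = 0.845) in mutants. HSPA1L, HSP70 and HSPA2, which rose by 0.64 ± 0.14 (adjusted p = 0.00395) in normal dogs, are alike in sequence, so how much signal comes from a relative is uncertain.

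HSP90AB1, the constitutive cytosolic HSP90, had 19 of 20 spots marked and was not tested. With the spots kept it gave 64.6, 55.2, 34.9, 35.5 and 36.0 in PBS eyes and 63.4, 60.9, 70.8, 51.5 and 80.0 in CNTF eyes of normal dogs and 55.0, 78.4, 59.7, 63.4 and 56.0 in PBS eyes and 61.7, 70.5, 55.8, 67.7 and 50.2 in CNTF eyes of mutants. PBS normal 1 and 2 lay within the range of the CNTF eyes and the other 3 PBS eyes below it. That fit gave 0.57 ± 0.16 (adjusted p = 0.0154) in normal dogs and -0.029 ± 0.16 (adjusted p = 0.917) in mutants, and the difference within slide 3 was 0.061.

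The probe of the inducible HSP90AA1 carries only a locus number in the files and is no member. Looked up by that number, a step added after seeing the data, its geometric mean went from 50.2 to 131 in normal dogs and from 63.3 to 144 in mutants. It rose by 1.38 ± 0.16 (adjusted p = 1.39e-04) and by 1.19 ± 0.15 (adjusted p = 2.22e-04), with 0.95 within slide 3. Its spots were saturated on 2 of 5 CNTF arrays of normal dogs and 4 of 5 of mutants and on no PBS array, and a saturated spot gives only a lower limit of the signal. The same lookup found 7 genes, HSP90AA1 among them, of which 5 were tested. In normal dogs 1 of these rose and 1 fell (median 0.18), and in mutants 1 rose and 0 fell (median -0.023). Of all probes 23.6% rose and 27.6% fell in normal dogs, and 11.6% and 17.3% in mutants.

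Of 15 cytosolic J proteins tested, 2 rose and 5 fell in normal dogs (median -0.23) and 2 rose and 2 fell in mutants (median -0.034). The shares of all probes were 23.6% rising and 27.6% falling in normal dogs, and 11.6% and 17.3% in mutants. DNAJC21, which acts in the maturation of ribosomes, gave 1.37, 1.81, 3.44, 3.04 and 2.45 in PBS eyes and 3.09, 3.65, 3.80, 4.72 and 3.25 in CNTF eyes of normal dogs. Mutants gave 1.65, 1.71, 1.31, 1.92 and 2.23 in PBS eyes and 3.18, 3.11, 3.91, 4.54 and 5.16 in CNTF eyes. The mutant groups did not overlap, and all 10 dogs were higher in the CNTF eye. DNAJC21 rose 1.59-fold in normal dogs, by 0.67 ± 0.15 (adjusted p = 0.00486), and 2.25-fold in mutants, by 1.17 ± 0.15 (adjusted p = 2.21e-04). A slide block gave 0.034 and 0.41, while slide 3 alone gave 0.70.

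DNAJC5 (cysteine string protein), which guards SNARE proteins on synaptic vesicles, gave 2.70, 1.97, 1.30, 1.59 and 1.82 in PBS eyes and 1.47, 1.21, 1.52, 1.25 and 1.9 in CNTF eyes of normal dogs. In mutants the signals were 2.73, 3.56, 2.99, 2.92 and 2.33 in PBS eyes and 1.39, 1.69, 1.23, 1.499 and 1.01 in CNTF eyes. All 5 mutants were lower in the CNTF eye and the groups were apart. DNAJC5 fell 2.14-fold in mutants, a log2 change of -1.10 ± 0.15 (adjusted p = 3.02e-04), and had -0.33 ± 0.15 (adjusted p = 0.0913) in normal dogs. It stood at -1.11 under a slide block and at -0.97 among the slide 3 arrays.

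DNAJB1 (HSP40), the main inducible partner of cytosolic HSP70, gave 7.21, 9.54, 3.80, 5.0 and 4.85 in PBS eyes and 7.18, 11.41, 7.72, 8.63 and 9.53 in CNTF eyes of normal dogs. Mutants gave 6.0, 10.02, 8.44, 8.14 and 6.76 in PBS eyes and 6.12, 7.08, 5.19, 6.27 and 4.96 in CNTF eyes. It was higher in the CNTF eye of 4 of 5 normal dogs and lower in that of 4 of 5 mutants. DNAJB1 rose by 0.61 ± 0.16 (adjusted p = 0.00985) in normal dogs and had -0.40 ± 0.16 (adjusted p = 0.0869) in mutants, where its further probe was called lower, at -0.46 ± 0.14 (adjusted p = 0.0336). DNAJC12, which helps the aromatic amino acid hydroxylases, gave 0.151, 0.103, 0.171, 0.150 and 0.124 in PBS eyes and 0.170, 0.115, 0.131, 0.130 and 0.143 in CNTF eyes of normal dogs and 0.144, 0.120, 0.0865, 0.154 and 0.149 in PBS eyes and 0.158, 0.202, 0.164, 0.217 and 0.215 in CNTF eyes of mutants. The mutant groups were apart and DNAJC12 rose by 0.57 ± 0.13 (adjusted p = 0.00751) there, against -0.0090 ± 0.13 (adjusted p = 0.958) in normal dogs, but within slide 3 it was -0.11. The mutant call was lost with normexp background correction (0.60, adjusted p = 0.0863) and as the mean of both probes of the gene (0.012, adjusted p = 0.979), of which the second was above background on no CNTF array. Mutants also had DNAJC17, a protein of the nucleus, called lower, at -0.68 ± 0.17. The others called in normal dogs were DNAJC13, DNAJC27, DNAJB4, DNAJC9 and DNAJB6, which fell, from -1.02 ± 0.30 for DNAJC13 to -0.23 ± 0.085 for DNAJB6.

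HSPB1 (HSP27), a small heat shock protein of glia and ganglion cells under stress, gave 10.9, 12.3, 9.23, 10.4 and 7.43 in PBS eyes and 13.1, 16.5, 14.5, 14.2 and 13.4 in CNTF eyes of normal dogs. Mutants gave 17.6, 30.5, 11.2, 13.4 and 9.75 in PBS eyes and 28.3, 39.5, 13.1, 16.8 and 12.9 in CNTF eyes. Mutants 1 and 2 were high in both eyes, so the mutant groups overlapped although every dog was higher in the CNTF eye. HSPB1 rose by 0.53 ± 0.11 (adjusted p = 0.00227) in normal dogs and by 0.40 ± 0.11 (adjusted p = 0.0151) in mutants. Without the dog as a block the adjusted p was 0.162 and 0.386, and without mutant dog 1 the mutant value was 0.33 (adjusted p = 0.058). It was the 1 of 3 tested small heat shock proteins that was called in either genotype.

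HSPB8, which works with BAG3 in removing misfolded protein, gave 2.42, 2.52, 1.53, 1.75 and 2.07 in PBS eyes and 2.01, 2.22, 2.497, 1.74 and 2.98 in CNTF eyes of normal dogs and 2.34, 3.63, 2.99, 3.22 and 2.32 in PBS eyes and 2.07, 2.63, 2.05, 3.15 and 1.96 in CNTF eyes of mutants. HSPB7, known from heart muscle, gave 0.314, 0.275, 0.297, 0.289 and 0.286 in PBS eyes and 0.238, 0.177, 0.267, 0.249 and 0.136 in CNTF eyes of normal dogs and 0.335, 0.135, 0.252, 0.179 and 0.183 in PBS eyes and 0.172, 0.137, 0.240, 0.183 and 0.301 in CNTF eyes of mutants. The normal groups of HSPB7 did not overlap, all 5 dogs being lower in the CNTF eye. Neither gene was called, with 0.15 ± 0.15 (adjusted p = 0.404) and -0.29 ± 0.15 (adjusted p = 0.171) for HSPB8 and -0.50 ± 0.20 (adjusted p = 0.0614) and -0.050 ± 0.20 (adjusted p = 0.884) for HSPB7.

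CRYAB (alpha B-crystallin), the small heat shock protein shared by lens and retina, had 11 of 20 spots marked. With them kept it gave 20.9, 23.0, 13.1, 14.7 and 14.3 in PBS eyes and 19.9, 19.5, 24.5, 16.9 and 28.3 in CNTF eyes of normal dogs and 19.9, 33.9, 23.8, 29.1 and 21.9 in PBS eyes and 21.0, 27.6, 17.9, 28.3 and 17.2 in CNTF eyes of mutants. The groups overlapped in both genotypes, 3 of 5 normal dogs and 1 of 5 mutants being higher in the CNTF eye. That fit gave 0.36 ± 0.18 (adjusted p = 0.114) and -0.20 ± 0.18 (adjusted p = 0.43), and the intron-crossing second probe gave 0.31 ± 0.16 (adjusted p = 0.122) and -0.13 ± 0.18 (adjusted p = 0.638), none of them called. The summed scaled signal of 11 lens markers was 5.87 to 6.43 in PBS and 4.38 to 4.77 in CNTF eyes of normal dogs, and 5.197 to 6.113 and 3.74 to 10.8 in mutants. Its part in the CRYAB signal was not tested.

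Of the genes named CCT, 3 of 3 tested were called higher in normal dogs (median 0.80) and 0 in mutants, where 1 had an unadjusted p under 0.05 (median 0.26). They were the chaperonin subunits CCT3 and CCT5 and a relative, CCT8L2. Over all probes 23.6% were called higher in normal dogs and 11.6% in mutants. CCT3, the gamma subunit, gave 2.10, 1.71, 1.23, 1.49 and 1.56 in PBS eyes and 2.81, 2.45, 2.67, 2.48 and 3.598 in CNTF eyes of normal dogs. Mutants gave 2.26, 3.16, 2.83, 2.92 and 2.19 in PBS eyes and 2.97, 4.02, 2.68, 3.51 and 2.66 in CNTF eyes. The normal groups did not overlap, and the PBS values of mutants lay above those of normal dogs. CCT3 rose by 0.80 ± 0.13 (adjusted p = 6.64e-04) in normal dogs and had 0.24 ± 0.13 (adjusted p = 0.19) in mutants, but within slide 3 it was 0.056. CCT5, the epsilon subunit, gave 9.20, 8.28, 5.61, 6.04 and 6.76 in PBS eyes and 10.98, 9.94, 11.2, 9.48 and 12.6 in CNTF eyes of normal dogs and 8.67, 10.2, 9.27, 9.28 and 8.58 in PBS eyes and 10.8, 12.2, marked, 11.8 and 9.43 in CNTF eyes of mutants. It rose by 0.61 ± 0.13 (adjusted p = 0.0033) in normal dogs and had 0.26 ± 0.14 (adjusted p = 0.196) in mutants. With the marked spot of CNTF mutant 3 kept, the normal rise of CCT5 was not called, at 0.59 ± 0.39 (adjusted p = 0.222). Nor was it in the deposited values (0.41, adjusted p = 0.387) or with normexp background correction (0.49, adjusted p = 0.0957).

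CCT8L2, a relative of the theta subunit, gave 0.439, 0.289, 0.255, 0.278 and 0.227 in PBS eyes and 0.672, 0.412, 0.610, 0.477 and 0.533 in CNTF eyes of normal dogs and 0.236, 0.599, 0.429, 0.520 and 0.345 in PBS eyes and 0.411, 0.632, 0.473, 0.664 and 0.398 in CNTF eyes of mutants. All 10 dogs were higher in the CNTF eye, with 0.88 ± 0.14 (adjusted p = 6.57e-04) in normal dogs and 0.32 ± 0.14 (adjusted p = 0.123) in mutants. CCT8, the theta subunit itself, had 15 of 20 spots marked and with them kept gave 17.7, 15.8, 16.28, 16.26 and 14.5 in PBS eyes and 21.5, 19.6, 23.7, 19.5 and 25.6 in CNTF eyes of normal dogs and 23.9, 33.3, 22.6, 20.7 and 21.8 in PBS eyes and 27.5, 33.9, 25.7, 31.2 and 23.0 in CNTF eyes of mutants. That fit gave 0.44 ± 0.11 (adjusted p = 0.0088) and 0.22 ± 0.11 (adjusted p = 0.185). A second bright probe of CCT8 with no marked spot gave 0.46 ± 0.082 (adjusted p = 0.00114) and 0.18 ± 0.082 (adjusted p = 0.124). Of the co-factors, HSPBAP1 fell with a log2 change of -0.51 ± 0.12 (adjusted p = 0.00468) in normal dogs, and HSPBP1, an exchange factor for HSP70, had 0.29 ± 0.15 (adjusted p = 0.113).

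Mitochondrial members made up 6 genes, of which 1 rose and 1 fell in normal dogs, beside 23.6% and 27.6% of all probes. HSPA9 (mortalin), the HSP70 that pulls proteins into the matrix, gave 2.52, 2.76, 3.15, 2.89 and 3.04 in PBS eyes and 2.73, 2.85, 2.79, 2.70 and 2.93 in CNTF eyes of normal dogs. Mutants gave 3.14, 3.17, 2.46, 3.20 and 2.95 in PBS eyes and 2.91, 3.23, 2.74, 3.45 and 3.11 in CNTF eyes. The groups overlapped in both genotypes, and the values were -0.035 ± 0.084 (adjusted p = 0.746) and 0.053 ± 0.084 (adjusted p = 0.679). The probe printed above, which was dimmer, was called lower instead, at -0.36 ± 0.095 (adjusted p = 0.009) and -0.50 ± 0.095 (adjusted p = 0.00256), so the probes of HSPA9 differ.

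DNAJA3 (Tid1), the J partner of HSPA9, gave 10.3, 8.41, 6.48, 6.04 and 6.96 in PBS eyes and 10.3, 8.81, 11.3, 9.25 and 12.1 in CNTF eyes of normal dogs. Mutants gave 9.64, 12.9, 11.8, 11.43 and 9.22 in PBS eyes and 9.86, 12.3, 9.54, 9.84 and 7.57 in CNTF eyes. It was higher in the CNTF eye of 4 of 5 normal dogs and 1 of 5 mutants. DNAJA3 rose by 0.45 ± 0.13 (adjusted p = 0.0168) in normal dogs and had -0.17 ± 0.13 (adjusted p = 0.393) in mutants. The sign turned to -0.11 within slide 3, and the call was lost without dog 3, 4 or 5 (adjusted p = 0.0545 to 0.0688). DNAJC30, which binds the ATP synthase, gave 0.562, 0.456, 0.387, 0.487 and 0.437 in PBS eyes and 0.326, 0.310, 0.132, 0.371 and 0.404 in CNTF eyes of normal dogs and 0.456, 0.404, 0.496, 0.349 and 0.352 in PBS eyes and 0.371, 0.227, 0.329, 0.272 and 0.326 in CNTF eyes of mutants. All 10 dogs were lower in the CNTF eye. DNAJC30 fell with a log2 change of -0.68 ± 0.18 (adjusted p = 0.00995) in normal dogs and had -0.44 ± 0.18 (adjusted p = 0.0935) in mutants, with -0.14 within slide 3.

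DNAJC11, which sits with the machinery that shapes the inner membrane, gave 0.157, 0.111, 0.104, 0.127 and 0.107 in PBS eyes and 0.179, 0.108, 0.141, 0.129 and 0.170 in CNTF eyes of normal dogs and 0.149, 0.221, 0.198, 0.164 and 0.145 in PBS eyes and 0.149, 0.170, 0.147, 0.164 and 0.127 in CNTF eyes of mutants. DNAJC15 and DNAJC19, parts of the import motor, were not called. DNAJC15 gave 2.86, 3.14, 4.04, 3.77 and 4.28 in PBS eyes and marked, 4.196, 3.29, marked and 3.17 in CNTF eyes of normal dogs and 3.08, 2.46, 2.62, 2.76 and 3.43 in PBS eyes and 3.06, 3.28, 3.88, 4.57 and 5.02 in CNTF eyes of mutants. The values of DNAJC11 were 0.26 ± 0.12 (adjusted p = 0.0969) and -0.20 ± 0.12 (adjusted p = 0.24), and those of DNAJC15 -0.10 ± 0.19 (adjusted p = 0.673) and 0.45 ± 0.15 (adjusted p = 0.0522). DNAJC19 had 0.10 ± 0.094 and 0.13 ± 0.094.

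**Figure D3:**
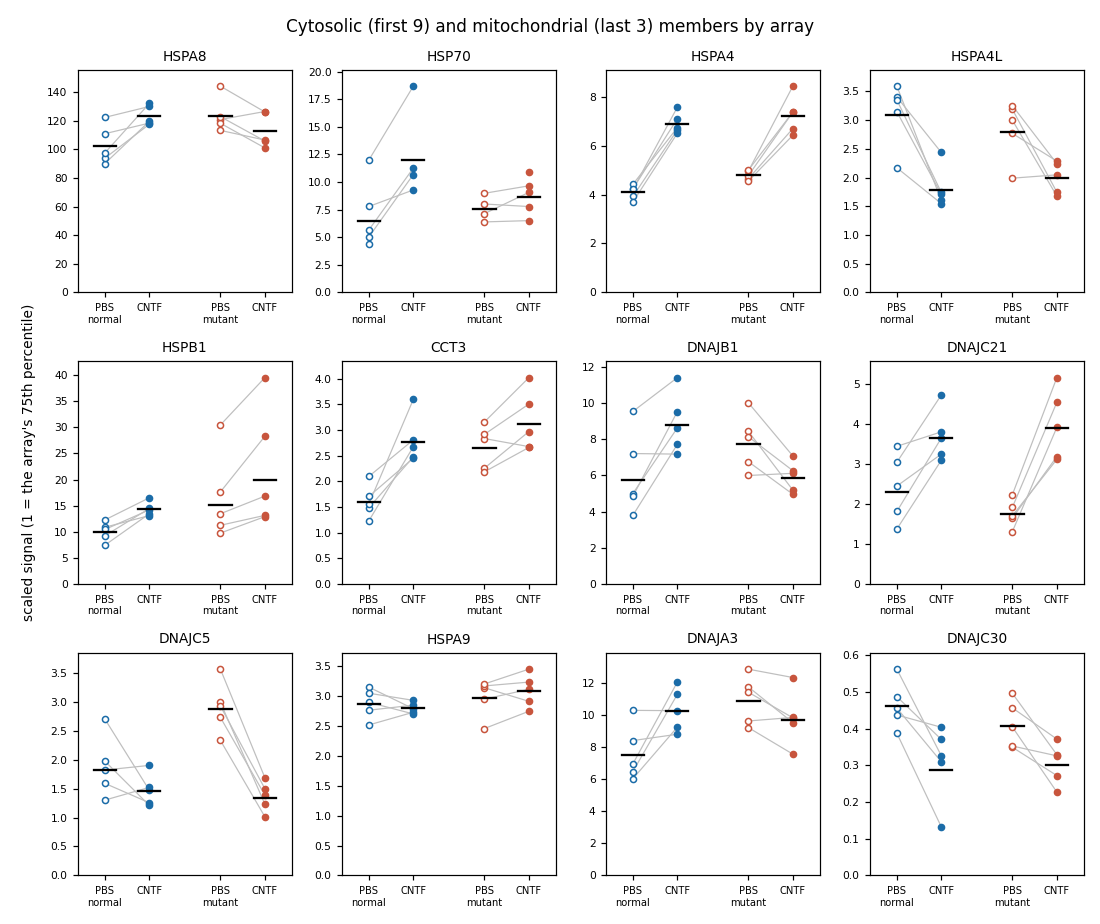
Scaled signal (1 = the array's 75th percentile) on each array for 9 cytosolic and 3 mitochondrial members, with open points for PBS and filled points for CNTF eyes, lines joining the eyes of a dog and bars at geometric means. HSPA4 and HSPA4L run in opposite directions, DNAJB1 goes up in 4 of 5 normal dogs and down in 4 of 5 mutants, and HSPA9 overlaps in both genotypes.

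**Figure D4:**
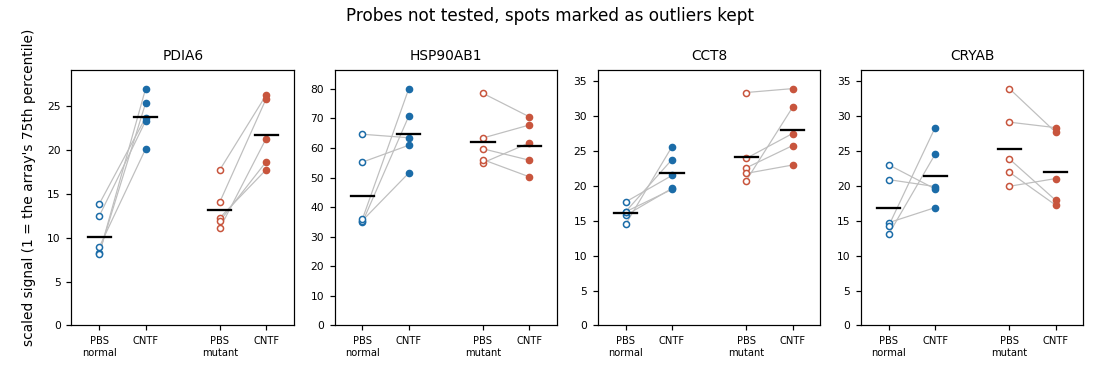
Scaled signal of the 4 members that could not be tested, with the spots marked as outliers kept, on each array. PDIA6 is higher in every CNTF eye than in any PBS eye of the same genotype, while CRYAB overlaps in both genotypes.

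The signs of the called members were compared across slides. The slide 3 arrays also enter the fits that made the calls, so a shared sign is in part built in and is given as a description. Of the 20 members called higher in normal dogs, 17 had the same sign within slide 3 and DNAJA3, DNAJB12 and HSPA2 did not. Of the 12 called lower, 11 did and DNAJC9 did not. Over all probes called in normal dogs 79.4% of those higher and 80.2% of those lower had the same sign there. In mutants 8 of 10 called higher (not DNAJC10 and DNAJC12) and 5 of 5 called lower kept the sign there, beside 97.6% and 90% of all probes called. With slide as a block the sign was kept by 20 of 20 and 12 of 12 in normal dogs, and by 9 of 10 and 4 of 5 in mutants, the exceptions being DNAJC10 and PDIA5. Over all probes called, 98% and 91.5% kept it in normal dogs and 93.9% and 90% in mutants.

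**Figure D5:**
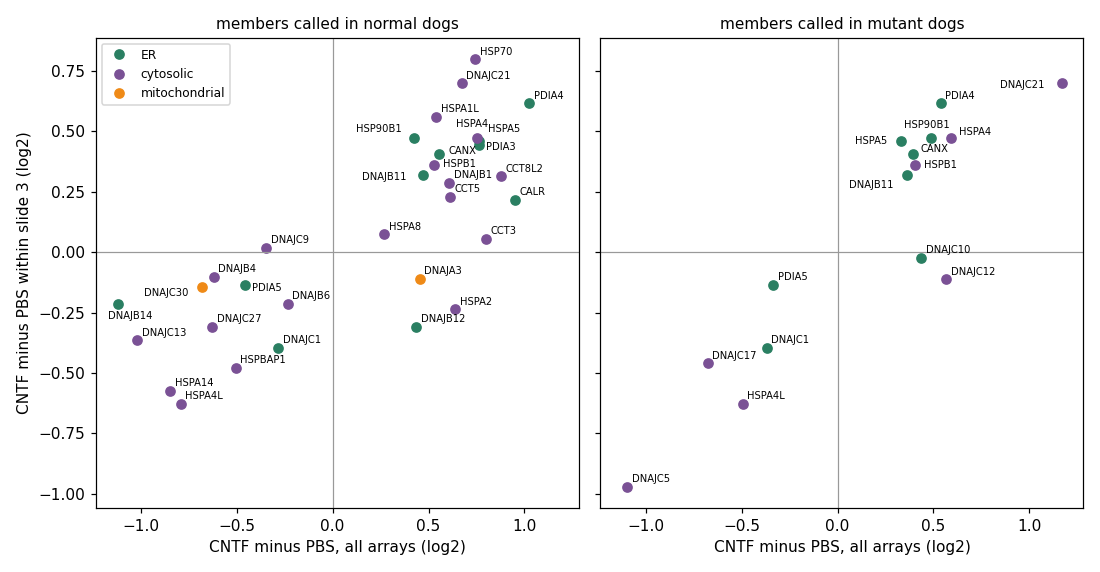
CNTF minus PBS over all arrays (x axis, log2) against the difference within slide 3 (y axis, log2, CNTF eyes of 2 normal dogs minus PBS eyes of 2 mutants) for the members called in normal dogs (left) and in mutants (right), coloured by compartment. PDIA4 and HSPA4 lie well above 0 on both axes, whereas DNAJA3, DNAJB12 and HSPA2 fall below 0 within slide 3.

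Genes that work with these chaperones were taken from lists chosen with earlier results known. Of 15 ER partners on the array 8 rose and 1 fell in normal dogs (median 0.32), and 3 rose and 0 fell in mutants (median 0.11). Over all probes 23.6% rose and 27.6% fell in normal dogs, and 11.6% and 17.3% in mutants. SDF2L1, which keeps HSPA5 and DNAJB11 bound to clients, went from 5.86 to 16.5 in normal dogs and from 8.08 to 14.2 in mutants, rises of 1.497 ± 0.18 (adjusted p = 1.00e-04) and 0.81 ± 0.18 (adjusted p = 0.00667). MANF, a secreted ER protein that binds HSPA5, rose by 0.93 ± 0.12 (adjusted p = 1.63e-04) and 0.39 ± 0.12 (adjusted p = 0.0324), and the prolyl isomerase PPIB by 0.71 ± 0.10 (adjusted p = 4.44e-04) and 0.47 ± 0.11 (adjusted p = 0.012). SEL1L, of the complex that removes misfolded ER protein, fell with a log2 change of -0.80 ± 0.13 (adjusted p = 8.56e-04) in normal dogs. Within slide 3 the values were 1.02 for SDF2L1, 0.66 for MANF, 0.48 for PPIB and -0.35 for SEL1L.

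Of 17 cytosolic partners tested 8 rose and 2 fell in normal dogs (median 0.19), and 2 rose and 1 fell in mutants (median 0.019). The shares of all probes were 23.6% and 27.6% in normal dogs and 11.6% and 17.3% in mutants. CDC37, which brings kinases to HSP90, rose by 0.84 ± 0.11 (adjusted p = 1.87e-04) and 0.41 ± 0.11 (adjusted p = 0.0177). FKBP5, an HSP90 co-chaperone of steroid receptors, rose by 0.71 ± 0.10 (adjusted p = 3.49e-04) and 0.70 ± 0.10 (adjusted p = 4.82e-04). The prefoldin subunits PFDN2 and PFDN6, which pass actin and tubulin to CCT, rose by 0.49 ± 0.10 (adjusted p = 0.00246) and 0.54 ± 0.11 (adjusted p = 0.0031) in normal dogs. HSF4, a heat shock factor best known from lens, fell with a log2 change of -0.75 ± 0.20 (adjusted p = 0.0155) in mutants. Within slide 3 the values were 0.44 for CDC37, 0.81 for FKBP5, 0.24 for PFDN2 and 0.069 for PFDN6. That of HSF4 was 0.29 there, of opposite sign to its change.

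Of 7 mitochondrial partners 3 rose and 1 fell in normal dogs (median 0.34), and 1 rose in mutants (median -0.0079). The shares of all probes were 23.6% rising and 27.6% falling in normal dogs, and 11.6% and 17.3% in mutants. GRPEL1, the exchange factor of HSPA9, rose by 0.59 ± 0.11 (adjusted p = 0.00128), the protease subunit CLPP by 0.65 ± 0.16 (adjusted p = 0.00615) and the disaggregase CLPB by 0.97 ± 0.24 (adjusted p = 0.00656), while CLPX, which feeds CLPP, fell with a log2 change of -0.72 ± 0.15 (adjusted p = 0.00268), all in normal dogs. The iron-sulfur co-chaperone HSCB rose by 0.35 ± 0.097 (adjusted p = 0.0212) in mutants. Within slide 3 the values were 0.27 for GRPEL1, 0.41 for CLPB, -0.58 for CLPX and 0.30 for HSCB. That of CLPP was -0.046 there, of opposite sign to its change.

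Cell type markers moved with treatment beside these changes. The summed scaled signal of 7 microglia and macrophage markers was 4.68 to 6.19 in PBS and 22.6 to 35.4 in CNTF eyes of normal dogs, and 6.69 to 9.64 and 23.8 to 38.8 in mutants, with 7 of 7 rising in normal dogs and 6 of 7 in mutants. That of 4 cone markers was 76.9 to 97.7 and 19.7 to 28.5 in normal dogs and 67.6 to 95.5 and 19.1 to 33.5 in mutants, and 4 of 4 fell in both. Of 5 rod markers 1 rose and 1 fell in normal dogs and 3 fell in mutants, with sums of 338.5 to 450.4 and 229.8 to 425.4, and of 391.7 to 700.5 and 242.3 to 424.6. Of 6 markers of Müller and reactive glia 4 rose and 1 fell in normal dogs and 2 rose and 2 fell in mutants. Beside these marker counts, 23.6% of all probes rose and 27.6% fell in normal dogs, and 11.6% and 17.3% in mutants. The part of the marker shifts in the chaperone values was not tested, and in whole retina fewer cells of a type and less RNA per cell cannot be told apart.

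Whether CNTF acted differently in the genotypes was tested as the difference of the CNTF terms. No member was called (0% of all probes in either direction), and limma gave 25 of 55 members and 10163 of 29336 probes an unadjusted p under 0.05. The differences, mutant minus normal, ran from -1.01 ± 0.23 (adjusted p = 0.103) for DNAJB1 to 1.10 ± 0.36 (adjusted p = 0.103) for DNAJB14. CALR had -0.77 ± 0.21 (adjusted p = 0.103), HSPA5 -0.43 ± 0.13 (adjusted p = 0.103) and PDIA4 -0.49 ± 0.17 (adjusted p = 0.103). HSPA4, called higher in both genotypes, had -0.16 ± 0.12 (adjusted p = 0.325). A change called in a single genotype is therefore not shown to differ from the other.

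Between genotypes, PBS eyes were compared over 57 members and none was called, beside 0.0102% of all probes called higher and 0.017% lower in mutants. In limma 22 of 57 members and 10187 of 29433 probes had an unadjusted p under 0.05. The median difference was 0.094 for ER, 0.23 for cytosolic and -0.049 for mitochondrial members. CCT3 had 0.73 ± 0.17 (adjusted p = 0.0953), HSPA2 0.74 ± 0.19 (adjusted p = 0.0953), DNAJB12 0.63 ± 0.13 (adjusted p = 0.0953) and DNAJC5 0.66 ± 0.19 (adjusted p = 0.0953). CRYAB had 1.05 ± 0.19 (adjusted p = 0.0953) over 3 arrays a group, and 0.59 (adjusted p = 0.103) with the marked spots kept.

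This outcome turned on a single array. Without normal dog 1, 12 members were called higher and 4 lower in mutants, where 13.7% and 7.77% of all probes were. Those higher were CCT3, CCT5, CRYAB, DNAJA3, DNAJB12, DNAJC11, DNAJC17, DNAJC5, HSPA2, HSPBP1, PDIA4 and PDIA6, and those lower DNAJB14, DNAJB4, DNAJC13 and DNAJC25. CRYAB had no usable spot on PBS normal 1, so leaving that array out removed no value of CRYAB. Its difference stayed at 1.055 (adjusted p = 0.0359), and was 0.59 with all dogs and the marked spots kept. In the fit without normal dog 1, CCT3 had 0.83 ± 0.16 (adjusted p = 0.0359), HSPA2 0.91 ± 0.14 (adjusted p = 0.0359) and PDIA4 0.57 ± 0.17 (adjusted p = 0.0437). The PBS eyes of normal dogs 2 to 4 were still on slide 1, which held no mutant eye, so slide went with genotype there. On males alone, with all normal dogs but only 2 mutants, no member was called. Age and slide still went with genotype among the males. Of all probes 0.0137% were called higher and 0.0893% lower in that fit of PBS eyes. In CNTF eyes none of 55 members was called either, beside 0% of all probes called higher and 0.00681% lower, and 2 of 55 members and 1645 of 29360 probes had an unadjusted p under 0.05 in limma. These were DNAJB1, with -0.58 ± 0.16 (adjusted p = 0.62), and DNAJC12, with 0.47 ± 0.15 (adjusted p = 0.703).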

How the data were processed

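Single-colour arrays of 20 retinas were analysed. Per the file headers, the deposited intensities were background-subtracted by Agilent's Feature Extraction software (9.5.3.1) on a design with canFam2 positions. The authors deposited log2 values of the whole series too, and per the submitters' processing notes Partek 6.4 was used. All their columns share a median of 6.18 and correlate with log2 intensity at 0.997 or above, and they served as an alternative only. The coding or untranslated place of a probe was not assigned.

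Control spots (1417 an array) and outlier-marked spots were dropped, spots of a probe averaged (43603 probes), and the array's 75th percentile subtracted from log2 intensity. A probe stayed if some group had it above background in 4 of 5 eyes or more (29545), and was tested where each group compared had 3 usable arrays or more. CNTF was tested in limma 3.58.1 (R 4.3.3), two-sided, with dogs as blocks and 1 CNTF term for either genotype, and genotypes within PBS and within CNTF eyes on 10 arrays each. Figures used Python 3.11.15 with matplotlib 3.10.9. On simulated normal dogs (27888 probes) 80% of probes changed by a log2 value of 1 and 24% of those changed by 0.5 were called.

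Eyes were paired by dog, since the design text treats both eyes of a dog and same-numbered labels share sex, age and genotype. Deviations of same-numbered arrays correlated at -0.15 to 0.69 over all probes and 0.17 to 0.73 over the 500 most variable. Members, lists and tests were chosen with earlier results of these data known. Genes named are the 4 of lowest adjusted p over both CNTF terms in each subgroup, well-known symbols where they are members (such as HSPA5 and HSPA9), members below background, and the 4 partners of lowest adjusted p in each compartment. Some genes given lie outside this rule, among them the partners HSF4 and HSCB and the members DNAJC10, DNAJC17, HSPA13 and HSPBAP1. Values with marked spots kept, and the lookup by gene number that found 7 genes, HSP90AA1 among them, were alternatives added after seeing the data.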

Additional observations from a re-analysis of the deposited data

Results flagged for a closer look

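Single arrays lay far from the other 4 of their group for 3 named members, and chance alone flags about 1 in 20 groups. DNAJC30 was 0.132 in CNTF normal 3, where the other CNTF eyes of normal dogs were at 0.310 to 0.404. HSP90B1 was 24.5 in PBS normal 1, below the 29.8 to 31.4 of the other PBS eyes of normal dogs. HSPA4L was 2.17 in PBS normal 1, against 3.15 to 3.59 in the others, and 2.44 in CNTF normal 2, against 1.55 to 1.74.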

How the results depend on the processing

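The counts of members called in normal dogs, 20 higher and 12 lower, were 17 to 21 and 8 to 13 when each dog was left out in turn, and those in mutants, 10 and 5, were 8 to 11 and 3 to 6. Over all probes these fits called 18% to 24.8% higher and 19.4% to 27.9% lower in normal dogs. In mutants they called 9.25% to 11.8% higher and 12.4% to 17.5% lower. Counts of 0 for the difference between genotypes and for genotype in CNTF eyes stayed at 0 throughout, while genotype in PBS eyes ran from 0 to 12 higher and 0 to 4 lower, its upper ends without normal dog 1, and was 2 higher in a fit of all arrays with dog as a random block. The random-block fit called 0.337% of all probes higher and 0.164% lower in PBS eyes. With normexp background correction the counts were 10 and 5 in normal dogs and 1 and 2 in mutants, and 19 of 35 calls of named members were lost. Of all probes 12% were then called higher and 7.63% lower in normal dogs, and 6.29% and 4.95% in mutants. The median of all probes moved from -0.090 to 0.092 in normal dogs and 0.17 in mutants. Of called probes 61.1% were higher in normal dogs against 46%, and 56% in mutants against 40.2%. With slide as a block, or with the dog and slide as blocks together, the member counts were 0 and 0 in both genotypes. Over all probes the slide block called 2.95% higher and 0.97% lower in normal dogs and 1.71% and 1.02% in mutants. Dog and slide together called 0 probes in normal dogs, and 0.127% higher and 0.0343% lower in mutants. Without the replicate block (the dog), 18 and 9 were called in normal dogs and 7 and 4 in mutants. Over all probes that fit called 19.6% higher and 19.6% lower in normal dogs, and 9.64% and 13.1% in mutants. Pairing the eyes therefore moved a member count by under 1.5 times. Of 35 calls of named members, 4 were lost without it (HSPB1 in both genotypes, HSPA5 in mutants with adjusted p = 0.107 and HSPA8 in normal dogs with adjusted p = 0.0518).

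The median change of ER members was 0.13 to 0.34 in normal dogs and 0.087 to 0.23 in mutants as each dog was left out, lowest without normal dog 5 (0.127) or 3 (0.131) and without mutant dog 3. It was 0.15 and 0.099 under quantile normalization, 0.15 and 0.10 under a slide block, and 0.10 among the slide 3 arrays. That of cytosolic members was 0.081 to 0.21 and -0.085 to -0.034, but -0.11 within slide 3 for both genotypes, and in mutants -0.10 in the deposited values, -0.089 with slide as a block and -0.17 with dog and slide. The mitochondrial median, 0.019 to 0.15 and -0.17 to -0.045 with dogs left out, turned to -0.12 under quantile normalization, -0.14 in the deposited values and -0.13 within slide 3 in normal dogs, was 0.31 there with dog and slide as blocks, and in mutants was 0.11 with slide, 0.18 with dog and slide and -0.20 as the mean of all probes. It holds 6 genes. The causes were not tested.

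Signs also turned within slide 3 for DNAJA3 (-0.11), DNAJB12 (-0.31) and, in mutants, DNAJC12 (-0.11), for DNAJC1 as the mean of its probes (0.067), for DNAJC30 with dog and slide as blocks (0.66), and for HSPA8 under quantile normalization (-0.0037) and in the deposited values (-0.0044).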
